A study of Homo sapiens with 9 samples.

Results

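The 10 genes described here mark the suprabasal layers of stratified epithelium and were taken as a fixed list: the keratins KRT1, KRT10, KRT4, KRT13 and KRT80, the cornified envelope genes IVL, SPRR1A, SPRR1B and TGM1, and SFN. Each was matched by symbol to 1 Ensembl gene ID, so that all 10 were found among the 78899 gene IDs in the count files, including those at or near a count of 0. Total RNA came from HaCaT cells, an established line of immortalized human keratinocytes, grown in high-glucose medium with serum and low calcium. The libraries fall into 3 groups of 3, a subpopulation sorted by fluorescence and named BD, a sorted subpopulation named NBD, and the cell line itself, named control. The labels do not explain the names BD and NBD, which are kept as given, or name the sorting markers. All groups share the line and the culture conditions. Whether replicates were separate cultures is not stated, so a p-value here measures only how far these libraries spread, which may be technical.

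In the epidermis, keratinocytes that leave the basal layer exchange the basal keratin pair KRT5 and KRT14 for KRT1 and KRT10, while the moist lining of the mouth and oesophagus uses KRT4 and KRT13. Keratins are built as pairs of a type II chain (KRT1, KRT4, KRT5, KRT80) and a type I chain (KRT10, KRT13, KRT14). In the upper layers the protein shell called the cornified envelope forms beneath the cell membrane when transglutaminase 1, the product of TGM1, crosslinks involucrin (IVL) and small proline-rich proteins (SPRR1A, SPRR1B). A rise in extracellular calcium is a classical trigger of this programme in cultured keratinocytes. SFN encodes stratifin (14-3-3 sigma), an epithelial adaptor protein that takes part in cell cycle arrest and keratinocyte differentiation.

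Totals ran from 25754757 to 28948743 counts in BD, from 25862752 to 29512856 in NBD and from 17128797 to 25782938 in control. Control replicates 1 and 2 stood apart from the other 7 libraries. Differences of the tested members from control are therefore also given without control replicate 3 and with it as the lone control. They appear by gene or in the plot of fold changes. The split was seen in these same values. P-values and calls from the fit without control replicate 3 follow that choice and are no independent test. All 9 keratinocyte markers, KRT5, KRT14 and TP63 among them, were above 3 counts in each group, with summed levels of 2435 to 3294 CPM in BD, 2050 to 3099 CPM in NBD and 2882 to 4039 CPM in control. CPM here are normalised, counts relative to the library total after TMM scaling. Summed levels of 5 melanocyte markers were at most 1.85 CPM. The 5 simple epithelial markers KRT7, KRT8, KRT18, KRT19 and EPCAM summed to 2556 to 3326 CPM in BD, above the 1980 to 2413 CPM in NBD and the 1947 to 2377 CPM in control. Of all single genes tested, 14.6% had groups without overlap between BD and NBD and 15.8% between BD and control. With all libraries edgeR called 0 of these 5 in both comparisons. The 7 fibroblast markers summed to 4.10 to 5.24 CPM in BD, 2.89 to 4.22 CPM in NBD and 0.766 to 5.24 CPM in control. COL1A2, PDGFRA, DCN, MLANA, TYR, DCT and TYRP1 had at most 3 counts in any library. The 4 endothelial markers summed to 11.9 to 18.9 CPM in BD, 6.74 to 16.3 CPM in NBD and 1.85 to 16.8 CPM in control. Of these, KDR had at most 3 counts in every library. These sums were not tested. As single genes with all libraries, edgeR called 0 markers of these lists, and DESeq2 called 1 keratinocyte marker lower in BD against control. In that comparison DESeq2 called 0.987% of all genes in either direction. Without control replicate 3, edgeR called 2 of the 9 keratinocyte markers higher and 3 lower in BD and in NBD against control. That fit called 13.8% of all genes higher and 10.5% lower in BD, and 11.6% and 6.56% in NBD. Simple epithelial, fibroblast and endothelial markers held calls there too.

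The mucosal keratin KRT13 had the widest spread between libraries in each group among the 5 members with a mean of at least 1 CPM. Its gene lies on GRCh38 chromosome 17, 41500981 to 41505705, minus strand, in GENCODE 29, and it encodes the type I keratin of non-cornifying suprabasal cells. KRT13 stood at 389, 1122 and 1479 CPM in BD replicates 1, 2 and 3, at 367, 734 and 1328 CPM in the NBD replicates, and at 4.19, 4.43 and 1427 CPM in the control replicates. BD and NBD overlapped, control replicate 3 lay within their range, and control replicates 1 and 2 lay far below every other library, on 82 and 79 counts against 37901 in control replicate 3. Among 19850 protein-coding genes ordered by CPM per kb of exon, KRT13 held ranks 144, 67 and 42 in BD, 114, 81 and 52 in NBD, and 9137, 9048 and 38 in control. It was thus among the most abundant messages per length in 7 libraries and near the middle of the order in the other 2.

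By edgeR's quasi-likelihood test with all 9 libraries, the log2 fold change of KRT13 was 0.30 ± 1.56 (SE) for BD against NBD (adjusted p = 0.987), 1.06 ± 1.58 for BD against control (adjusted p = 0.749) and 0.76 ± 1.57 for NBD against control (adjusted p = 0.852). In the fit without control replicate 3, KRT13 rose by 7.86 ± 0.81 in BD (adjusted p = 0.000167) and by 7.57 ± 0.80 in NBD (adjusted p = 0.000231) against control replicates 1 and 2. It was higher in 3 of 3 sorted libraries each time. KRT13 itself shows the split that led to this fit, so these p-values and the tally are no independent support. With control replicate 3 as the lone control the values were -0.52 ± 0.71 in BD and -0.82 ± 0.70 in NBD (adjusted p = 1 each), in a fit that takes the spread of the lone library from the sorted groups. The direction against control was therefore set by which control libraries entered the fit.

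KRT13 also varied within the sorted groups. The highest library over the lowest was 3.81-fold in BD and 3.62-fold in NBD, a larger ratio than 98.7% of 13260 genes and 95.2% of 13534 genes with a mean of at least 1 CPM, whose medians were 1.31-fold and 1.55-fold. In control the ratio was 341-fold, above 99.5% of 13222 genes. BD averaged 997 ± 556 CPM and NBD 810 ± 485 CPM (SD, n = 3 each), so the means differed by less than the spread among replicates. Set side by side by replicate number, BD was above NBD each time, at 389 against 367, 1122 against 734 and 1479 against 1328 CPM. The labels do not say that equal numbers pair libraries. With the number as a block in edgeR the log2 fold change was 0.34 ± 1.23 (adjusted p = 0.958).

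**Figure D1:**
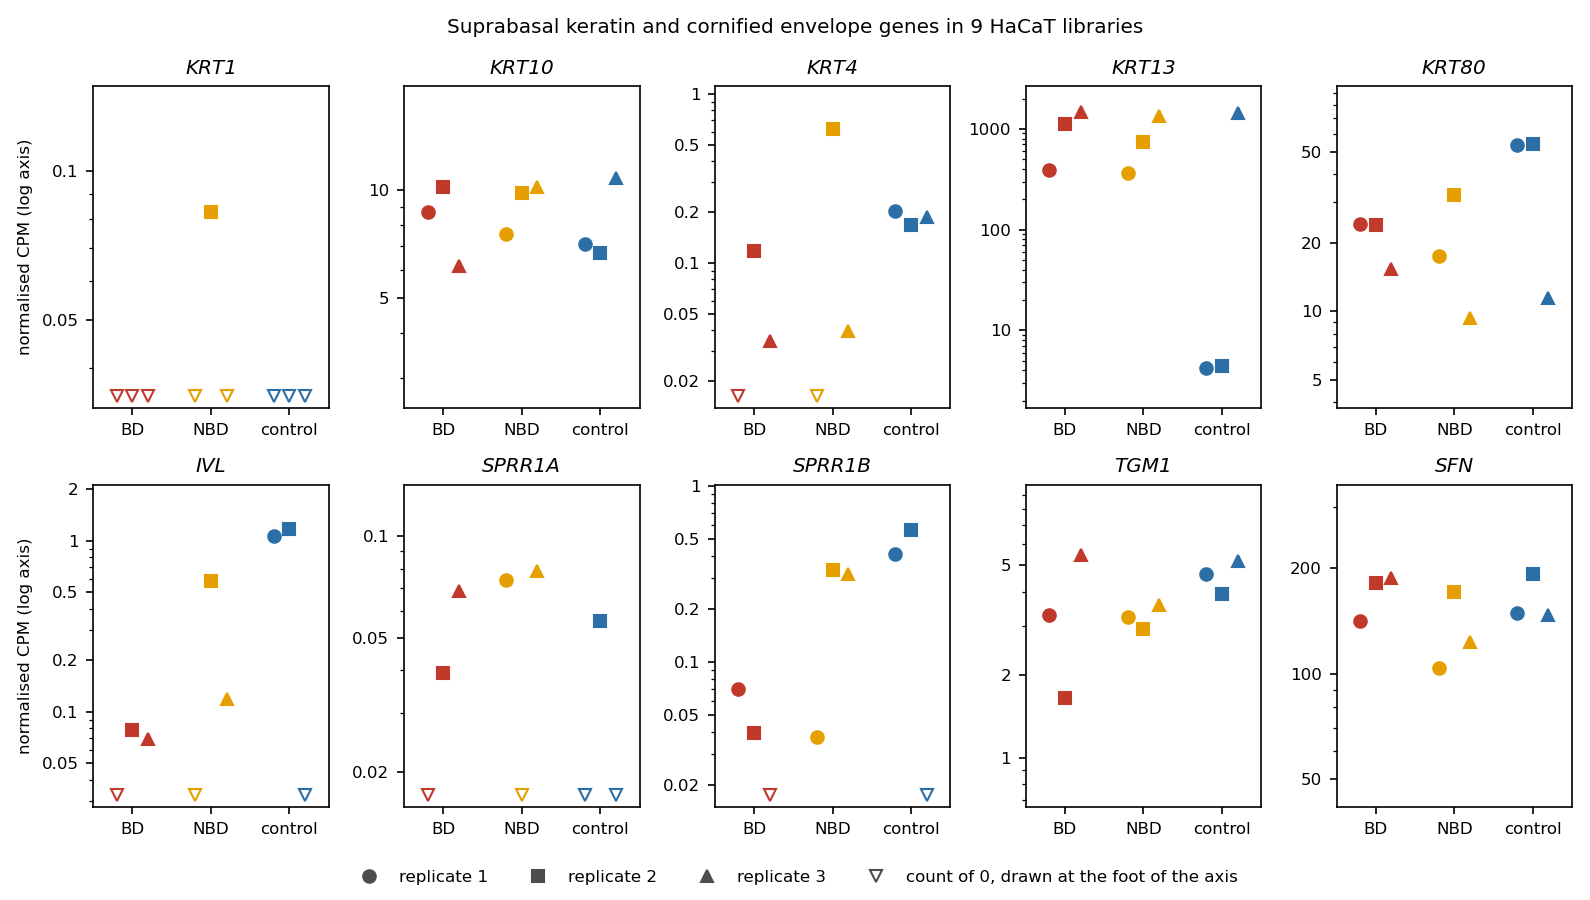
Normalised CPM of each of the 10 genes on log axes, by library, with BD in red, NBD in orange and control in blue, marker shapes for the replicate number, and open triangles at the foot of the axis for a count of 0. KRT13 lay between 367 and 1479 CPM in the 6 sorted libraries and control replicate 3, and at 4.19 and 4.43 CPM in control replicates 1 and 2, while KRT1 had a count above 0 in NBD replicate 2 alone.

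The type II partner of KRT13 was nearly absent. KRT4 (chromosome 12, 52806549 to 52814551, minus strand) had 0, 3 and 1 counts in BD, 0, 15 and 1 counts in NBD, and 4, 3 and 5 counts in control. Of its 16 counts in NBD, 15 came from NBD replicate 2. Per kb of exon, KRT13 exceeded KRT4 by 10833-fold in BD replicate 2, by 1345-fold in NBD replicate 2 and by 8618-fold in control replicate 3, against 23.3-fold and 29.9-fold in control replicates 1 and 2. The basal type I keratin KRT14 stood between 0.423 and 1.37 times the level of its type II partner KRT5 per kb in BD, between 0.513 and 2.21 times in NBD, and between 0.586 and 1.76 times in control. KRT4 did not pass the filter on low counts in the fit of all libraries. It was tested with no filter, without a call. It also met the filter with control replicate 3 as the lone control, through NBD replicate 2, where it was high. It stood there at -2.02 ± 1.46 for BD against NBD.

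Positions along chromosome 17 were examined after the values of KRT13 had been seen. Within 100 kb of KRT13 GENCODE 29 places 9 other protein-coding genes, all keratins, of which KRT15, KRT19 and KRT14 reached 100 counts in some library. KRT15, a type I keratin of basal cells centred 14.8 kb away, ranged from 285 to 446 CPM over the sorted libraries, against 27.1, 27.3 and 442 CPM in the control replicates. KRT19, 22.6 kb away and typical of simple and progenitor epithelium, ranged from 618 to 1170 CPM over the sorted libraries, against 388, 468 and 816 CPM in control. KRT14, 81.3 kb away, ranged from 139 to 437 CPM over the sorted libraries, against 321, 387 and 343 CPM in control. The split among control libraries was thus widest at KRT13, smaller at KRT15 and KRT19, and not seen at KRT14. An antisense gene, ENSG00000229732, shares 476 exon bases with KRT13 and had at most 25 counts in any library.

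**Figure D2:**
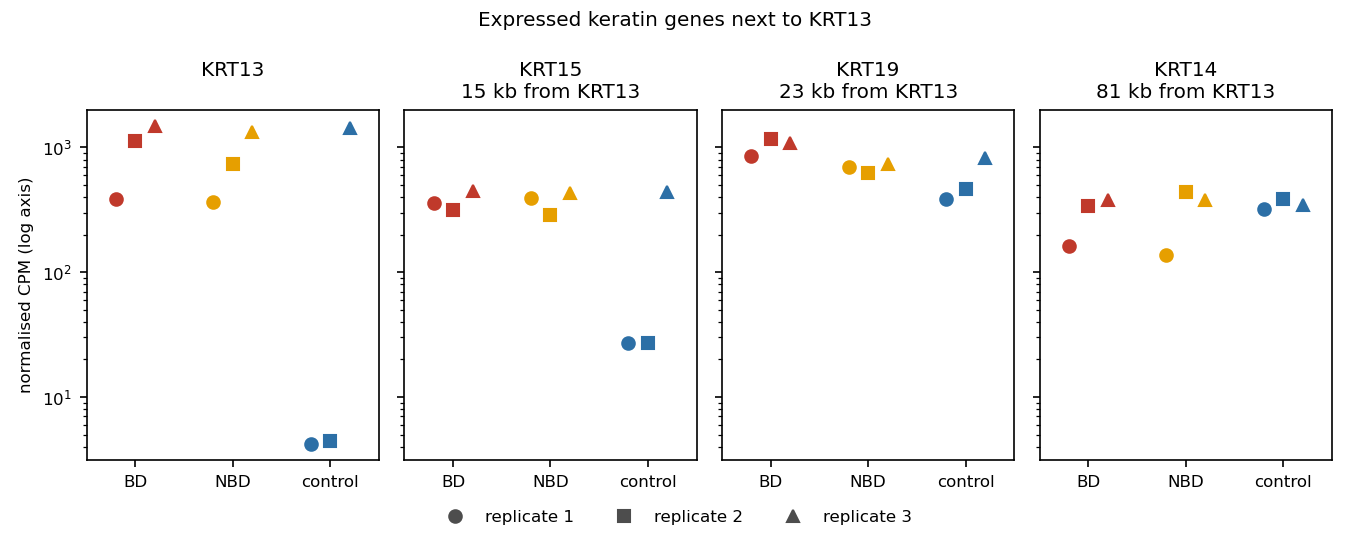
Normalised CPM on a shared log axis for KRT13 and the 3 keratin genes within 100 kb of it that reached 100 counts in some library, by group, with marker shapes for the replicate number. Control replicates 1 and 2 lie below the other libraries at KRT13, KRT15 and KRT19, and at 321 and 387 CPM among them at KRT14.

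The epidermal keratin pair was uneven in the same way, with its type I chain present and its type II chain near 0. KRT10 (chromosome 17, 40818117 to 40822595, minus strand), the type I keratin of the spinous layer, stood at 8.72, 10.2 and 6.17 CPM in BD, at 7.56, 9.80 and 10.2 CPM in NBD, and at 7.10, 6.67 and 10.8 CPM in control. The 3 groups overlapped, with means of 8.37 ± 2.04 CPM in BD, 9.18 ± 1.42 CPM in NBD and 8.21 ± 2.30 CPM in control (SD, n = 3 each). Against control its log2 fold change was 0.02 ± 0.29 in BD (edgeR, adjusted p = 0.970) and 0.16 ± 0.29 in NBD (adjusted p = 0.827), and BD stood at -0.13 ± 0.28 against NBD (adjusted p = 0.965). KRT1 (chromosome 12, 52674736 to 52680407, minus strand), its type II partner, had 0 counts in 8 libraries and 2 in NBD replicate 2, where 3 counts, the limit that a count of 0 allows, would be 0.103 to 0.168 CPM depending on the library. KRT10 shares 56 exon bases with KRT10-AS1 on the opposite strand, which had 170 to 257 counts beside 119 to 288 for KRT10, and the sources used here do not say whether counting used the strand.

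KRT80 (chromosome 12, 52168996 to 52192000, minus strand), a type II keratin found near desmosomes and in the cytoskeleton of differentiating epithelia, showed the opposite split to KRT13 among the control libraries. It stood at 24.2, 23.8 and 15.3 CPM in BD, at 17.5, 32.2 and 9.40 CPM in NBD, and at 53.3, 53.9 and 11.5 CPM in control. Control replicates 1 and 2 were the highest of the 9 libraries, and control replicate 3 was lower than every BD library. With all libraries the log2 fold change of KRT80 was 0.10 ± 0.55 for BD against NBD (edgeR, adjusted p = 0.987), -0.90 ± 0.55 in BD against control (adjusted p = 0.453) and -1.0 ± 0.56 in NBD against control (adjusted p = 0.553). In the fit without control replicate 3, KRT80 fell by 1.33 ± 0.39 in BD (adjusted p = 0.0290) and by 1.43 ± 0.39 in NBD (adjusted p = 0.0280), lower in 3 of 3 libraries of each. With control replicate 3 as the lone control it stood at 0.87 ± 0.56 in BD and 0.75 ± 0.56 in NBD, without a call (adjusted p = 1 each).

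The 3 envelope precursors, which lie together in the epidermal differentiation complex of chromosome 1, were close to 0 in every library. Bases before their start sites are shown for these 3 genes and for SFN, which was well expressed, because IVL and SPRR1 promoters are known to be driven through AP-1 sites. The AP-1 motif searched was TGANTCA, which reads the same on both strands. Of the 10 genes, 6 were matched in RefSeq's promoter table for GRCh38.p14, and 4 of these held the motif within 250 bases before the start, as did 6.57% of 35116 promoters in the table. Capitals mark the motif, and positions follow RefSeq's start sites, of which that of SPRR1A lies before the GENCODE 29 block.
IVL (chr1:152908296-152908545, plus strand): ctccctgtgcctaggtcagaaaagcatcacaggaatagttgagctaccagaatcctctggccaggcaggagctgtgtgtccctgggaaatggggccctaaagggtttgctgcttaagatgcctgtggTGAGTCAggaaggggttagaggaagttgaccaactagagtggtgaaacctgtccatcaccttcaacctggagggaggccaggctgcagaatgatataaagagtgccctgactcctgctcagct
SPRR1A (chr1:152983831-152984080, plus strand): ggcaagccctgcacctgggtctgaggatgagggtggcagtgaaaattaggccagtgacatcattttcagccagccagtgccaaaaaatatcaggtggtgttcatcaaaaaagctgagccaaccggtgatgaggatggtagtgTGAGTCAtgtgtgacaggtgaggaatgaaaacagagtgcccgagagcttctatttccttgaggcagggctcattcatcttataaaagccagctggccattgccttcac
SPRR1B (chr1:153030953-153031202, plus strand): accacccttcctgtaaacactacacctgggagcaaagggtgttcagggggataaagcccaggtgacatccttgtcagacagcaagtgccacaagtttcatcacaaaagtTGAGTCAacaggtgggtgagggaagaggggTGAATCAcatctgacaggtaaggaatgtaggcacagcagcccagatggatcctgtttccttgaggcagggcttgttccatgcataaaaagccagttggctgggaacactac
SFN (chr1:26862899-26863148, plus strand): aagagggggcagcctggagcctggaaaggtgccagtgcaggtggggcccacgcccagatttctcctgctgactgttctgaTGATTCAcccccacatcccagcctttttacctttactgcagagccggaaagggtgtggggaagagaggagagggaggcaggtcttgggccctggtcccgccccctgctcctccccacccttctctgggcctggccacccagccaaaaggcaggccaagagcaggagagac
The match began 123 bases before the start site in IVL, 108 in SPRR1A, 141 and 111 in SPRR1B, and 170 in SFN, and the KRT10 and KRT4 windows held none. The TATA box letters TATAAA, searched on both strands, began 30 bases before the start in IVL, 29 in SPRR1A and 29 in KRT10, and 10.7% of all promoters held them. A match describes the letters only: the motif was present in 3 genes near 0 and in SFN at over 100 CPM alike.

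IVL (chromosome 1, 152908545 to 152911886, plus strand), which encodes involucrin, had 0, 2 and 2 counts in BD, 0, 14 and 3 counts in NBD, and 21, 21 and 0 counts in control. That is 0 to 0.0785 CPM in BD, 0 to 0.579 CPM in NBD, and 1.07, 1.18 and 0 CPM in control, so control replicates 1 and 2 were the highest and control replicate 3 shared the bottom with BD replicate 1 and NBD replicate 1. Pooled over libraries, the BD level was 0.0731 times that of control, with an exact 95% interval of 0.0191 to 0.202, and the NBD level 0.338 times, with an interval of 0.180 to 0.607. BD stood at 0.216 times NBD, with an interval of 0.0530 to 0.663, and leaving out NBD replicate 2 brought edgeR's log2 fold change of IVL to -0.23 ± 1.92, against -2.13 ± 1.62 with all libraries. These intervals cover counting error only and leave out the spread between libraries, and 14 of the 17 counts in NBD came from 1 library. With all libraries edgeR called none of these differences (adjusted p = 0.856 for BD against NBD, 0.346 for BD against control and 0.619 for NBD against control). In the fit without control replicate 3 it called IVL lower in BD, at a log2 fold change of -4.39 ± 1.14 (adjusted p = 0.0184), and not in NBD, at -2.27 ± 0.98 (adjusted p = 0.129). In that fit IVL met the filter on low counts through control replicates 1 and 2, where it was high, so the call depends on that choice.

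SPRR1B (chromosome 1, 153031202 to 153032900, plus strand) had 2, 1 and 0 counts in BD, 1, 8 and 8 counts in NBD, and 8, 10 and 0 counts in control. NBD replicates 2 and 3 and control replicates 1 and 2 held most of the counts, and control replicate 3 was at 0. SPRR1A (chromosome 1, 152985231 to 152985500, plus strand) had 0, 1 and 2 counts in BD, 2, 0 and 2 counts in NBD, and 0, 1 and 0 counts in control. The GENCODE 29 transcripts of the pair match at 260 of 270 aligned bases, 96.3%, with a longest identical run of 74 bases, so reads could be split or dropped between them and both counts are uncertain. Neither passed the filter with all libraries. In the fit that left out control replicate 3, SPRR1B was tested and called lower in BD, at -3.56 ± 1.01 (edgeR, adjusted p = 0.0265), and not in NBD, at -1.07 ± 0.83 (adjusted p = 0.402). It met the filter there through control replicates 1 and 2, where it was high, so this call too depends on that choice. BD against NBD stood at -2.49 ± 0.99 (adjusted p = 0.459).

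TGM1 (chromosome 14, 24249114 to 24264432, minus strand), the enzyme that crosslinks these precursors, was low but detected everywhere. It stood at 3.30, 1.65 and 5.45 CPM in BD, at 3.26, 2.94 and 3.58 CPM in NBD, and at 4.65, 3.92 and 5.20 CPM in control. BD spanned the values of both other groups, and the 3 NBD libraries lay just below the 3 control libraries. Of the 6 members tested, 0 had groups without overlap between BD and NBD, 0 between BD and control, and 1, TGM1, between NBD and control, where 14.6%, 15.8% and 8.42% of all genes tested had. The log2 fold change of TGM1 was 0.09 ± 0.40 for BD against NBD (edgeR, adjusted p = 0.987), -0.40 ± 0.40 in BD against control (adjusted p = 0.617) and -0.49 ± 0.40 in NBD against control (adjusted p = 0.630). The values against control replicates 1 and 2 were -0.29 ± 0.42 in BD and -0.38 ± 0.42 in NBD.

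SFN (chromosome 1, 26863138 to 26864457, plus strand) was abundant at similar levels in all 3 control libraries. It stood at 141, 181 and 188 CPM in BD, at 103, 171 and 123 CPM in NBD, and at 149, 192 and 147 CPM in control. All groups overlapped, with means of 170.1 ± 25.1 CPM in BD, 133 ± 34.6 CPM in NBD and 163 ± 25.7 CPM in control (SD, n = 3 each). The highest library over the lowest was 1.33-fold in BD, 1.65-fold in NBD and 1.31-fold in control, close to the medians over all genes of 1.31-fold, 1.55-fold and 1.52-fold. The log2 fold change of SFN was 0.36 ± 0.22 for BD against NBD (edgeR, adjusted p = 0.832), 0.06 ± 0.22 in BD against control (adjusted p = 0.902) and -0.30 ± 0.22 in NBD against control (adjusted p = 0.610). Against control replicates 1 and 2 alone, BD stood at 0.01 ± 0.24 and NBD at -0.35 ± 0.24.

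Compared per kb of exon, KRT13 was the most abundant member in the 6 sorted libraries and in control replicate 3, followed by SFN. Median levels in BD were 385 CPM per kb for KRT13, 137 for SFN, 5.48 for KRT80, 4.07 for KRT10 and 0.883 for TGM1. Median levels in NBD were 252 CPM per kb for KRT13, 93.6 for SFN, 4.03 for KRT80, 4.57 for KRT10 and 0.873 for TGM1. In control replicates 1 and 2 the order was SFN, KRT80, KRT10, KRT13 and TGM1, with KRT13 at 1.44 and 1.52 CPM per kb beside SFN at 113 and 146. KRT80 stood above KRT10 within each of the 3 BD libraries and within 2 of the 3 NBD libraries, while their ranges overlapped in both groups. KRT13 in the lowest BD library, at 133 CPM per kb, lay within the 107 to 142 of SFN. The remaining 5 genes, KRT1, KRT4, IVL, SPRR1A and SPRR1B, were each under 1 CPM per kb in all 9 libraries. Exon lengths come from GENCODE 29, which holds SPRR1A as a single block of 270 bases.

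Counted over the list, 6 of the 10 members passed the filter with all libraries, IVL through control replicates 1 and 2 and 1 NBD library. Against NBD, edgeR called 0 of the 6 in BD, where it called 0.0177% of all 16921 genes. Against control it called 0 of the 6 in BD and 0 in NBD, where it called 0% of all genes in both comparisons. At an unadjusted p under 0.05 the list held 0 members for BD against NBD, 1 for BD against control, which was IVL, and 0 for NBD against control, where 5.86%, 13.8% and 9.13% of all genes were. DESeq2 called 0 in each, where it called 0.343%, 0.987% and 0.177% of genes. It gave IVL no adjusted p for BD against control, at an unadjusted p of 0.019, so IVL was not judged there. With no filter on low counts edgeR called 0 members for BD against NBD, KRT13 higher and KRT80 and IVL lower in BD against control, and KRT80 lower in NBD against control, where it called 0.333%, 2.95% and 1.51% of 39344 genes. KRT13 stood there at 1.05 ± 0.27 in BD against control, beside 1.06 ± 1.58 with the filter. KRT80 and IVL likewise kept nearly the same folds with smaller standard errors. The control libraries differed by 341-fold at KRT13, a spread that a standard error of 0.27 leaves out. Calls of members with no filter are therefore no measure of a difference beyond the spread between libraries. With the 6 BD and NBD libraries alone 0 members were called, where 0.031% of genes were. Without control replicate 3, 7 members were tested, and 4 were called in BD against control, where 24.3% of 17755 genes were, and 2 in NBD against control, where 18.2% were. In BD 1 was called higher, KRT13, where 13.8% of genes were, and 3 lower, KRT80, IVL and SPRR1B, where 10.5% were, the last pair having passed the filter through the control libraries in which they were high. In NBD against control KRT13 was called higher, where 11.6% of genes were, and KRT80 lower, where 6.56% were, and BD against NBD had 0 called members, where 0.0901% of genes were called. With control replicate 3 as the lone control 0 of 7 members, KRT4 now among them, were called in any comparison, where 0.0478% of genes were called for BD against NBD and 0% in both comparisons with control.

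**Figure D3:**
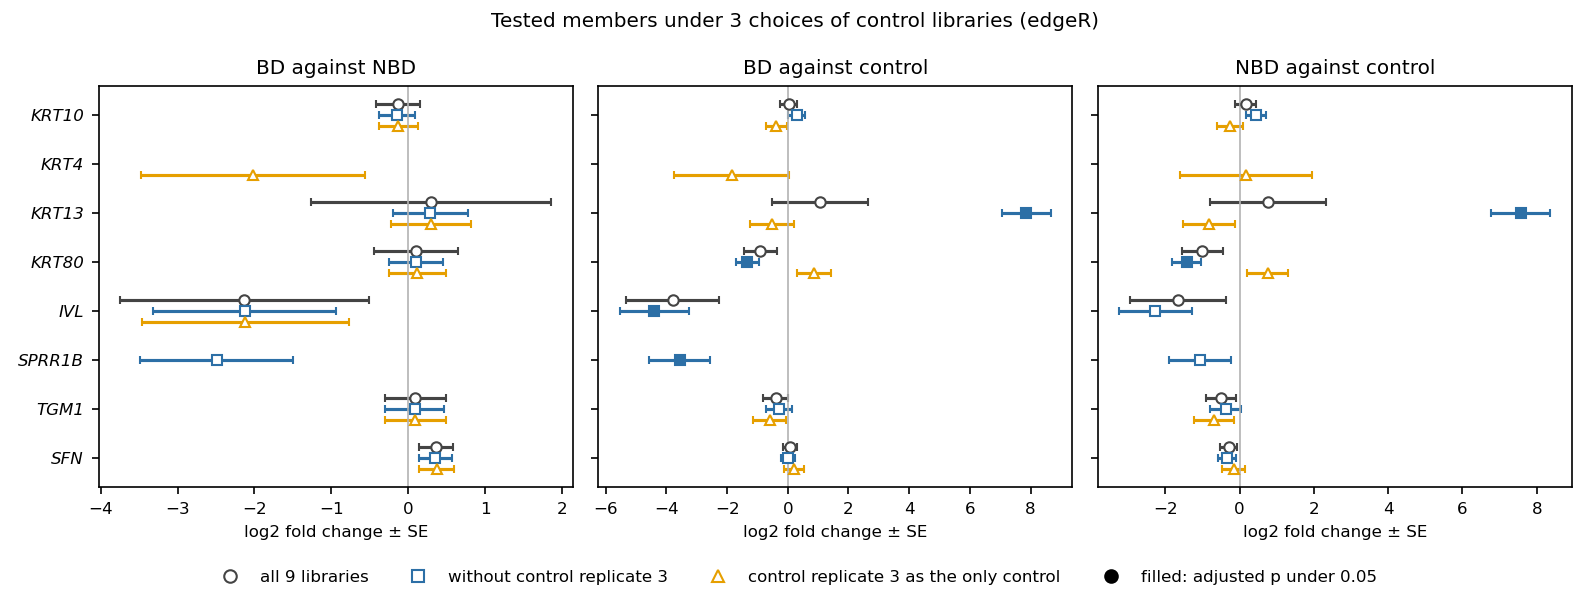
Log2 fold change with its standard error from edgeR for the members tested, with a panel for each of the 3 comparisons, for 3 choices of control libraries, with filled markers where the adjusted p was under 0.05. KRT13 stands at 7.86 and 7.57 against control without control replicate 3 and at -0.52 and -0.82 with that library alone, and IVL is left out of those panels where the lone control library had 0 counts.

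The wider programme was read from 4 further lists of 69 genes, chosen with earlier results of these data known. Of 31 cornified envelope precursors, 17 had 0 counts in all libraries and 23 had at most 3 counts in every library, among them loricrin, filaggrin 2 and most late cornified envelope genes. The 5 tested were at a median log2 fold change of -0.07 for BD against NBD, -0.27 for BD against control and 0.30 for NBD against control, where all genes were at -0.02, 0.03 and 0.04. Against control they were at -0.07 in BD and 0.48 in NBD without control replicate 3, and the 6 tested with it as the lone control were at -0.11 and -0.04. The most abundant per kb were CSTA, cystatin A, a protease inhibitor of the envelope, and PPL, periplakin, a linker of envelope and filaments. CSTA stood at 70.2, 122 and 153 CPM in BD, at 57.9, 89.4 and 170 CPM in NBD, and at 64.3, 67.1 and 126 CPM in control. PPL stood at 59.4, 50.0 and 52.0 CPM in BD, at 55.4, 85.8 and 27.8 CPM in NBD, and at 73.8, 84.8 and 56.5 CPM in control. The groups overlapped for both, and neither was called with all libraries or without control replicate 3.

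Of 12 suprabasal keratins and spinous genes, 5 had at most 3 counts in every library and 2, LY6D and DMKN, were tested with all libraries. DMKN, the more abundant, stood at 31.4, 39.7 and 35.4 CPM in BD, at 30.6, 42.9 and 43.0 CPM in NBD, and at 41.5, 49.4 and 35.9 CPM in control. Without control replicate 3, 3 were tested and 1, LY6D, was called, higher in BD and in NBD. In that fit 13.8% and 11.6% of all genes were called higher. Against control replicates 1 and 2, LY6D, a surface antigen of keratinocytes, rose by 2.78 ± 0.59 in BD (edgeR, adjusted p = 0.00742) and by 2.96 ± 0.59 in NBD (adjusted p = 0.00726). With all libraries LY6D was not called, at 0.63 ± 0.82 in BD (adjusted p = 0.710) and 0.79 ± 0.82 in NBD (adjusted p = 0.695). It stood at 1.84, 2.32 and 3.58 CPM in BD, at 2.44, 1.61 and 4.60 CPM in NBD, and at 0.409, 0.336 and 4.14 CPM in control, so control replicate 3 again lay with the sorted libraries.

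Of 16 genes for crosslinking, shedding and the lipid barrier, 7 were tested, and their median log2 fold change was -0.26 for BD against NBD, -0.93 for BD against control and -0.64 for NBD against control. With control replicate 3 as the lone control the median of the 8 then tested was -0.17 in BD and -0.03 in NBD. With all libraries 0 were called, with 0, 5 and 2 at an unadjusted p under 0.05, where 5.86%, 13.8% and 9.13% of all genes were, and DESeq2 called 0. Without control replicate 3, 2 of the 7 rose and 3 fell in BD, where 13.8% and 10.5% of all genes did, and 2 rose and 1 fell in NBD, where 11.6% and 6.56% did. KLK5, a protease of skin shedding, stood at 39.7, 42.4 and 40.9 CPM in BD, at 27.4, 33.1 and 41.6 CPM in NBD, and at 7.31, 10.1 and 34.2 CPM in control, and it rose by 2.24 ± 0.24 in BD (edgeR, adjusted p = 0.000221) and by 1.98 ± 0.24 in NBD (adjusted p = 0.000543). ABCA12, the lipid transporter of lamellar granules, rose by 1.5 ± 0.25 in BD (adjusted p = 0.00229) and by 1.73 ± 0.25 in NBD (adjusted p = 0.00147). Its levels were 24.1 to 42.0 CPM in the sorted libraries and 11.1, 9.31 and 28.5 CPM in the control replicates. KLK7, a protease that cuts corneodesmosomes, fell by 1.36 ± 0.29 in BD (adjusted p = 0.00718) and by 1.33 ± 0.29 in NBD (adjusted p = 0.0107). Its levels were 3.22 to 5.83 CPM in the sorted libraries and 12.1, 11.4 and 4.22 CPM in the control replicates. KLK8 fell by 1.15 ± 0.32 in BD (adjusted p = 0.0250) and stood at -0.85 ± 0.32 in NBD (adjusted p = 0.0901). Its levels were 3.70 to 7.78 CPM in the sorted libraries and 10.5, 12.5 and 6.48 CPM in the control replicates. For each of these named genes control replicate 3 lay within the range of the sorted libraries. The kallikreins therefore did not move together across the control split.

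Of 10 transcription factors of differentiation, 7 were tested with all libraries and 0 were called, with 0, 1 and 0 at an unadjusted p under 0.05, where 5.86%, 13.8% and 9.13% of all genes were, and 0 called by DESeq2. Their median log2 fold change was 0.22 for BD against NBD, -0.03 for BD against control and -0.01 for NBD against control, and -0.49 and -0.43 with control replicate 3 as the lone control. KLF4, a driver of barrier formation, stood at 64.8, 115 and 156 CPM in BD, at 70.9, 67.1 and 99.5 CPM in NBD, and at 14.7, 14.2 and 130 CPM in control. Against control replicates 1 and 2 it rose by 2.97 ± 0.36 in BD (edgeR, adjusted p = 0.000429) and by 2.47 ± 0.35 in NBD (adjusted p = 0.00132). Of 8 factors tested in that fit, 3 rose and 2 fell in BD, where 13.8% and 10.5% of all genes did, and 3 rose and 1 fell in NBD, where 11.6% and 6.56% did. CEBPB, a factor that links differentiation with growth arrest, rose by 1.92 ± 0.24 in BD (adjusted p = 0.000504) and by 1.71 ± 0.24 in NBD (adjusted p = 0.00114). Its levels were 30.7 to 50.8 CPM in the sorted libraries and 11.9, 13.9 and 68.8 CPM in the control replicates. With all libraries CEBPB was at 0.61 ± 0.55 in BD (edgeR, adjusted p = 0.589) and 0.39 ± 0.55 in NBD (adjusted p = 0.777). PRDM1, a repressor active in upper epidermal layers, rose by 2.98 ± 0.54 in BD (adjusted p = 0.00345) and by 2.76 ± 0.54 in NBD (adjusted p = 0.00641). Its levels were 1.94 to 5.69 CPM in the sorted libraries and 0.562, 0.392 and 4.33 CPM in the control replicates. With all libraries PRDM1 was at 1.08 ± 0.77 in BD (edgeR, adjusted p = 0.506) and 0.84 ± 0.77 in NBD (adjusted p = 0.660). ZNF750, a factor of terminal differentiation on at most 11 counts per library, was called lower in BD (adjusted p = 0.0248) and in NBD (adjusted p = 0.0496). It was not tested with all libraries and met the filter here through control replicates 1 and 2, where it was high. Because the libraries are of bulk cells, fewer cells carrying a transcript and less of it per cell cannot be told apart for any gene here.

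**Figure D4:**
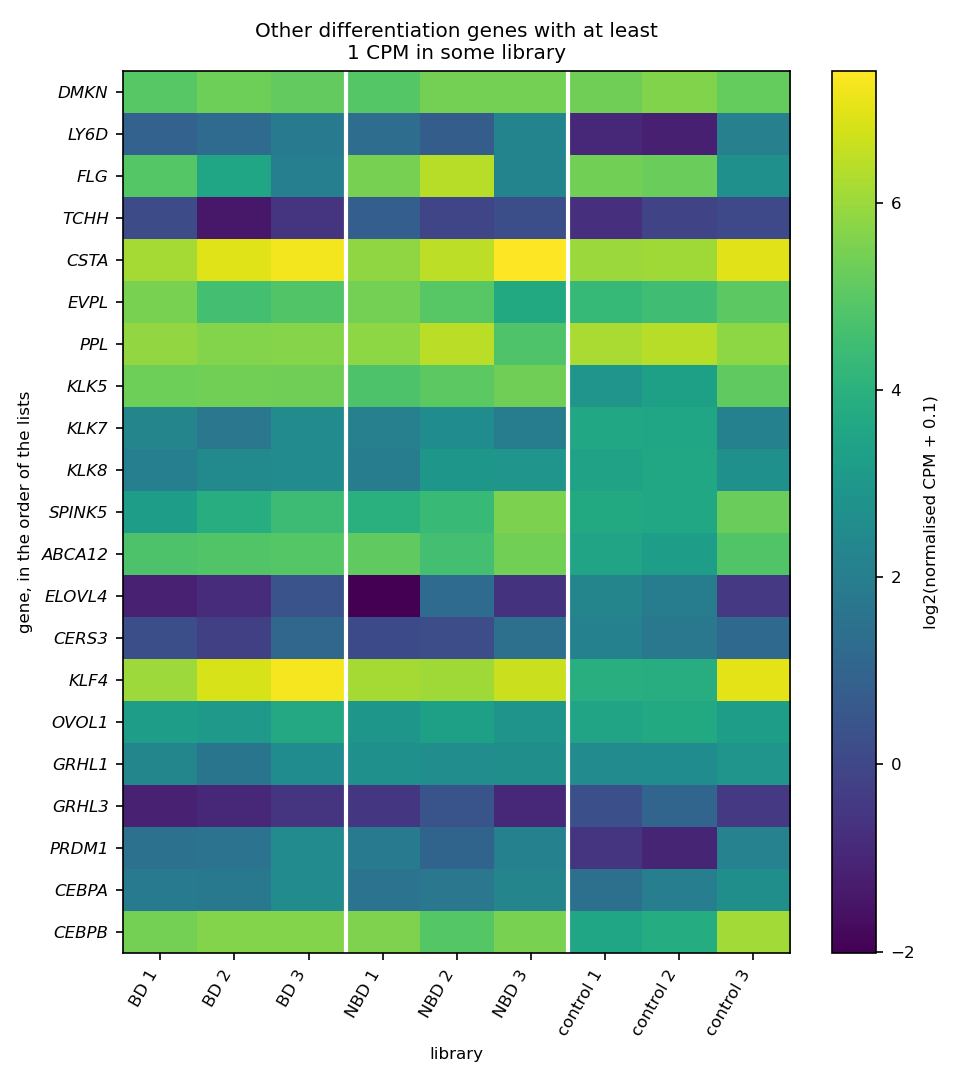
Heat map of log2(normalised CPM + 0.1) for the 21 of 69 other differentiation genes that reached 1 CPM in some library, with genes in rows and the 9 libraries in columns. LY6D, KLF4, PRDM1 and KLK5 are darkest of their rows in control replicates 1 and 2, and KLK7 and KLK8 are brightest of theirs there.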

How the data were processed

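The authors deposited counts of reads for each gene, without normalization, from rRNA-depleted, stranded, paired-end libraries per the labels' protocols. The submitters' processing notes name STAR 2.7.11b, featureCounts, Trimmomatic 0.39, FastQC 0.74 and the build GRCh38, with annotation release, strand setting and handling of multiply matched reads not given in the sources used here. Symbols came from a gene name table, and coordinates and exon lengths from GENCODE 29.

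Depth was 17128797 to 29512856 counts per library. Genes kept by filterByExpr, 16921 with all libraries and 17755 without control replicate 3, were fitted in edgeR 4.0.16 (R 4.3.3) with TMM scaling, a term per group and 6 residual degrees of freedom, or 5 without control replicate 3. Quasi-likelihood tests took both directions, p-values were adjusted after Benjamini and Hochberg across every gene in the fit, and calls were made at 0.05. The standard error is the log2 fold change over the square root of F. The procedure was tested on simulated counts in which libraries of a group shared the same mean level and only better expressed genes were changed. That test therefore does not cover a split control group or genes with few counts. Low counts were compared with exact 95% intervals for a ratio (SciPy 1.17.1), which cover counting error only.

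All 10 members are named. From each other list, genes called with all libraries or without control replicate 3 are named, up to 4 per comparison, and otherwise the 2 with the highest level per kb. DMKN is named besides, as the other spinous gene tested with all libraries. Members and lists were chosen with earlier results of these data known. The immune marker list is not reported here. Alternatives were DESeq2 1.42.0, its size factors in edgeR, no filter, the replicate number as a block, the 6 libraries compared, control replicate 3 as the lone control, and leaving out each library. Plots used matplotlib 3.10.9.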

Additional observations from a re-analysis of the deposited data

How the results depend on the processing

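Over 15 alternatives, 266 values of single members were recomputed: 238 kept direction and side of the threshold, 9 gained a call and 19 changed sign, none of these 19 with an adjusted p under 0.05. The 238 include IVL for BD against control by DESeq2, which got no adjusted p and was counted as not called. DESeq2 size factors in edgeR changed no count of calls by over 1.5 times. All genes called for BD against NBD were 3 with all libraries, 131 with no filter, 58 by DESeq2, 5 in the 6 libraries compared and 9 with control replicate 3 as the lone control. For BD against control 0 genes became 1162 with no filter and 167 by DESeq2, and for NBD against control 0 became 594 and 30. Members called with no filter were 3 of BD against control (KRT13, KRT80, IVL) and 1 of NBD against control (KRT80). The standard error of KRT13 in that fit, 0.27 in BD against control, leaves out the 341-fold spread among control libraries. Leaving out each library gave 0 to 16, 0 to 4317 and 0 to 3228 genes for the 3 comparisons, and 0, 0 to 4 and 0 to 2 members, with every call of a member from the fit without control replicate 3. BD against NBD then ranged from -2.72 to -0.23 for IVL, the smaller size without NBD replicate 2, from -0.3115 to 0.0483 for KRT10, -0.10 to 0.86 for KRT13, -0.23 to 0.65 for KRT80 and -0.39 to 0.41 for TGM1, and BD against control from -0.15 to 0.29 for KRT10 and -0.0047 to 0.1922 for SFN. With control replicate 3 as the lone control the signs of KRT10, KRT13 and KRT80 turned, to -0.38, -0.52 and 0.87 in BD and -0.25, -0.82 and 0.75 in NBD. IVL is given no fold there, since that library had 0 counts and a fitted value would depend on the prior count. The cause of these changes was not tested. With the replicate number as a block, 0 genes were called in each comparison and TGM1 stood at -0.0217 for BD against NBD. KRT13 against control moved there to 3.98 ± 1.86 in BD (edgeR, adjusted p = 0.257) and 3.64 ± 1.85 in NBD (adjusted p = 0.361). Without the block it stood at 1.06 and 0.76. SFN for BD against NBD was 0.38 ± 0.17 with the block (adjusted p = 0.581). Deviations of libraries with the same number correlated at 0.04 to 0.61, and in 14 of 18 checks a library correlated best with its own number. Members under 3 counts are limited by depth.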

Other observations

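Some values followed the replicate number across groups, a pattern seen after the values and not tested. KRT13 and TGM1 were highest in replicate 3 of BD, of NBD and of control, and KRT80 was lowest there in each group. In each group KRT13 was lowest in replicate 1 and TGM1 in replicate 2, and IVL, on few counts, was highest in replicate 2. For KRT10 and SFN neither the highest nor the lowest library had the same number in all groups. How many of all genes follow the number in this way was not counted. FLG, the gene of filaggrin, which feeds the keratin-bundling granules of the upper epidermis, was lowest in replicate 3 of each group, at 30.2, 11.7 and 4.03 CPM in BD, at 44.0, 83.3 and 4.56 CPM in NBD, and at 42.6, 38.0 and 6.48 CPM in control. Its highest library over its lowest was 7.49-fold in BD and 18.2-fold in NBD, above 99.7% of genes with a mean of at least 1 CPM in both groups. By edgeR FLG was at -1.52 ± 0.98 for BD against NBD (adjusted p = 0.835). The antisense gene FLG-AS1 shares 704 exon bases with FLG, and its counts were not used here. The labels do not say what the numbers mark.

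NBD replicate 2 was the highest of the 6 sorted libraries for some differentiation genes and the lowest for others. It held all counts of KRT1, 15 of the 16 counts of KRT4 in NBD and 14 of the 17 of IVL in NBD. It stood highest for KRT80 at 32.2 CPM and FLG at 83.3 CPM. SPRR1B had 8 counts in NBD replicate 2 and 8 in NBD replicate 3. The KRT13 level of NBD replicate 2, 734 CPM, lay between those of the other NBD libraries. It was the lowest sorted library for LY6D at 1.61 CPM, PRDM1 at 1.94 CPM, CEBPB at 30.7 CPM and ABCA12 at 24.1 CPM. It had 0 counts of SPRR1A, as did BD replicate 1, for a gene with at most 2 counts in any library.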
